A study of Mus musculus with 10 samples.

Results

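The distal convoluted tubule is the short stretch of the nephron after the thick ascending limb, and 3 of its best known genes were followed through RNA sequencing of mouse glomeruli, the filtering units of the kidney. Slc12a3 encodes the thiazide-sensitive sodium-chloride cotransporter, Calb1 encodes calbindin, and Pvalb encodes parvalbumin. The genes were taken by symbol from a table of 12934 genes in 10 libraries, and they were selected on their normalized counts in these same libraries, which had already been seen to differ between the groups. Their levels and differences are therefore a description, with no test.

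The mice were 17-week-old wildtype DBA/2J animals, an inbred strain labelled as susceptible to diabetic kidney disease. In the diabetic Esm-1 group (n = 3), plasmids for mouse Esm-1 and the Sleeping Beauty transposase were given by hydrodynamic injection at 7 weeks of age, a rapid intravenous injection that brings plasmid mainly into liver cells. Low-dose streptozotocin, a toxin of insulin-producing cells, followed at 8 weeks, and a 60% high-fat diet over an additional 5 weeks. The diabetic saline group (n = 4) had a saline injection with the same streptozotocin and diet, and the non-diabetic saline group (n = 3) had saline and vehicle. Only diabetic mice are stated to have had the high-fat diet, so diabetes and diet cannot be told apart. No group had Esm-1 without diabetes, and none had the transposase or an empty plasmid alone. The labels do not say whether each library came from 1 animal, so p-values measure only the spread between these libraries, which may in part be technical.

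In the distal convoluted tubule, Slc12a3 brings sodium and chloride in from the urine, under a cascade of WNK kinases that the ubiquitin ligase of Klhl3 and Cul3 keeps in check. Calbindin and parvalbumin belong to the EF-hand family, whose helix-loop-helix motifs bind calcium. In mice, parvalbumin marks the early part of the segment, and calbindin is richest in its late part and in the connecting tubule that follows. None of the 3 is a gene of podocytes, endothelium or mesangium, the cell types of the glomerulus itself.

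Total reads per library lay between 3931712 and 11300629, but 91.1% to 92.8% of them fell on the rows Rn45s, Lars2 and Mir6236, which left 338549 to 962321 reads for all other genes. A single read was worth 0.619 to 1.77 normalized counts. All 24 listed markers of podocytes, endothelium and mesangium passed the filter on low values. Pecam1, an adhesion molecule of endothelium, had 154 to 189 normalized counts in diabetic Esm-1 libraries, 177 to 274 in diabetic saline libraries and 291 to 344 in non-diabetic saline libraries. Esm1 itself lay between 0 and 6.51 normalized counts in diabetic Esm-1 libraries, between 0.926 and 3.20 in diabetic saline libraries and between 0 and 2.48 in non-diabetic saline libraries. Non-diabetic saline replicate 2 stood apart, with the lowest level of all 3 distal convoluted tubule genes and the highest summed proximal tubule and podocyte markers of the 10 libraries.

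All 3 genes were higher in both diabetic groups than in the non-diabetic group, and no diabetic library came down to the level of a non-diabetic one. The genes were selected on these values, and how many of all genes separate in this way was not counted. The genes differed in abundance, and in every library Slc12a3 came first, Calb1 second and Pvalb last, also per kilobase of transcript. The diabetic Esm-1 and diabetic saline libraries overlapped for each of the genes. In bulk RNA, fewer cells of a type and less RNA per cell cannot be told apart, and this holds for every level given here.

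Slc12a3 reached 875, 2195 and 2540.3 normalized counts in diabetic Esm-1 libraries, 1706, 986, 1239 and 1053 in diabetic saline libraries, and 543, 88.0 and 529.8 in non-diabetic saline libraries. The Esm-1 group held both the highest library and the lowest diabetic one, and the lowest of all was non-diabetic saline replicate 2. Behind these values stood 1344, 2302 and 2122 reads in the Esm-1 libraries, 595 to 2133 in the diabetic saline libraries, and 877, 97 and 425 in the non-diabetic saline libraries. The log2 difference of diabetic saline minus non-diabetic saline was 2.05 ± 0.43 (SE of the limma fit; 4.13-fold on the log2(value + 1) scale). Without non-diabetic saline replicate 2 it was 1.18. Diabetic Esm-1 minus non-diabetic saline gave 2.52 ± 0.46 (5.75-fold), and 1.66 without that library.

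Calb1 had 261, 484 and 727 normalized counts in diabetic Esm-1 libraries, 410.4, 256, 379.9 and 421 in diabetic saline libraries, and 89.8, 35.4 and 122 in non-diabetic saline libraries. All diabetic libraries lay above the non-diabetic ones, and the values rest on 238 to 607 reads per diabetic library and on 39 or more per non-diabetic one. The log2 difference was 2.29 ± 0.32 (SE; 4.88-fold) for diabetic saline minus non-diabetic saline, and 1.77 without non-diabetic saline replicate 2. For diabetic Esm-1 minus non-diabetic saline it was 2.61 ± 0.34 (6.11-fold), and 2.10 without that library.

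Pvalb was the rarest of the genes, with 25.4, 34.3 and 49.1 normalized counts in diabetic Esm-1 libraries, 33.6, 23.1, 31.0 and 37.2 in diabetic saline libraries, and 10.5, 1.81 and 6.23 in non-diabetic saline libraries. These are 36 to 41 reads in each Esm-1 library, 21 to 42 in each diabetic saline library, and 17, 2 and 5 in the non-diabetic saline libraries. The exact 95% Poisson interval of the lowest library, from 2 reads, ran from 0.220 to 6.55 normalized counts and covers counting error only. The log2 difference was 2.37 ± 0.37 (SE; 5.15-fold) for diabetic saline minus non-diabetic saline and 2.55 ± 0.39 (5.84-fold) for diabetic Esm-1 minus non-diabetic saline. With non-diabetic saline replicate 2 left out they were 1.80 and 1.98. At this low level the value depends on the pseudocount, and with 5 in place of 1 the differences were 1.76 and 1.92. Only 1 non-diabetic library reached a value of 10, so Pvalb passed the filter on low values through the diabetic libraries. The 3 genes all passed the filter.

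**Figure D1:**
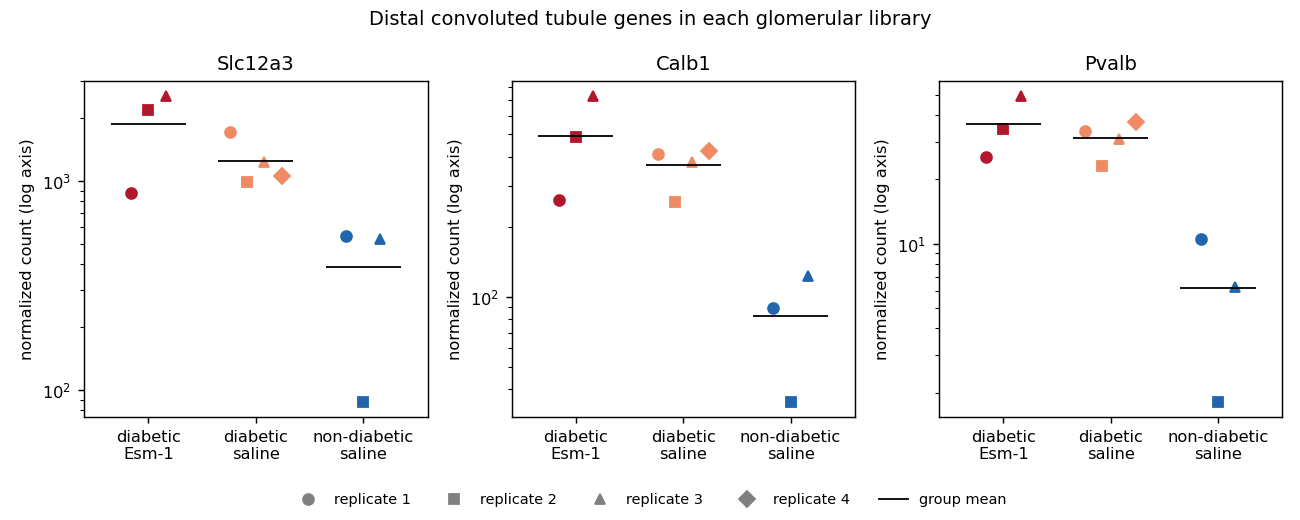
Normalized counts (log axis) of Slc12a3, Calb1 and Pvalb in each library of the diabetic Esm-1 (n = 3), diabetic saline (n = 4) and non-diabetic saline (n = 3) groups; marker shapes give the replicate and the black line the group mean. For each gene, every diabetic library lies above all 3 non-diabetic ones, and non-diabetic saline replicate 2 is lowest, with 88.0, 35.4 and 1.81. The genes were selected on these values.

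Between diabetic Esm-1 and diabetic saline, the log2 difference was 0.48 ± 0.43 for Slc12a3, 0.32 ± 0.32 for Calb1 and 0.18 ± 0.37 for Pvalb (SE of the limma fit). Each was close to or below its standard error. The Esm-1 libraries were spread more widely, with 1870.2 ± 879 normalized counts of Slc12a3 (SD, n = 3), against 1246 ± 325 in diabetic saline libraries (SD, n = 4). Without Esm-1 replicate 1, the lowest of its group, the differences became 0.96 for Slc12a3, 0.72 for Calb1 and 0.40 for Pvalb. Without Esm-1 replicate 3, the highest, they became 0.19, -0.02 and -0.06.

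Divided by the length of a GENCODE M21 reference transcript (3299 bases for Slc12a3, 4222 for Calb1 and 977 for Pvalb), the level of Slc12a3 was 567 ± 266 normalized counts per kilobase in diabetic Esm-1 libraries, 378 ± 98.5 in diabetic saline and 117 ± 78.5 in non-diabetic saline libraries (SD, n = 3, 4 and 3). Calb1 followed with 116 ± 55.1 per kilobase in diabetic Esm-1, 86.9 ± 18.0 in diabetic saline and 19.5 ± 10.4 in non-diabetic saline libraries. Pvalb was lowest, with 37.1 ± 12.2 in diabetic Esm-1, 32.0 ± 6.10 in diabetic saline and 6.34 ± 4.46 in non-diabetic saline libraries. In both diabetic groups the 3 genes did not overlap in level per kilobase. In the non-diabetic group neighbours in this order did overlap between libraries, since Slc12a3 in replicate 2 had 26.7 per kilobase and Calb1 in replicate 3 had 28.9, although the order was kept within each library. The transcript lengths come from another build than the authors' mm9, so the levels per kilobase are approximate.

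The proportions among the genes overlapped between all groups. Within a library, Slc12a3 had 3.35 to 4.53 reads per read of Calb1 in the diabetic Esm-1 group, 2.5 to 4.16 in the diabetic saline group and 2.49 to 6.05 in the non-diabetic group. Calb1 had 10.3 to 14.8 reads per read of Pvalb in the diabetic Esm-1 group, 11.1 to 12.3 in the diabetic saline group and 8.53 to 19.6 in the non-diabetic group. The proportion to Slc12a1 and Umod, markers of the neighbouring segment, did not overlap in the same way. Slc12a1, the sodium-potassium-chloride cotransporter of the thick ascending limb and the nearest relative of Slc12a3 in the nephron, gave 3.23, 5.78 and 7.69 reads of Slc12a3 per read of its own in diabetic Esm-1 libraries, 4.19, 11.5, 11.1 and 3.58 in diabetic saline libraries, and 1.41, 0.522 and 1.05 in non-diabetic saline libraries. For Umod, which encodes uromodulin and is the most abundant thick ascending limb marker, the ratios of Slc12a3 to it were 1.63 to 2.66 in diabetic Esm-1, 1.92 to 2.91 in diabetic saline and 0.187 to 0.643 in non-diabetic saline libraries. Neither diabetic group overlapped with the non-diabetic one in the ratios to Slc12a1 and Umod, which do not depend on the scaling of a library. Slc12a3 was selected on its values, and both markers had a lower mean in diabetic saline than in non-diabetic saline libraries. Of the 6 thick ascending limb genes tested, 4 lay below 0 and 2 above in that comparison. Sostdc1, from the same list, had 44.3 to 76.0 normalized counts in diabetic saline libraries, against 9.98 to 27.9 in non-diabetic saline libraries. No ratio to Sostdc1 was taken. Reads of Slc12a3 per read of Aqp2, the water channel of the collecting duct, did overlap between the saline groups. They were 1.36 to 3.70 in diabetic Esm-1, 1.08 to 2.63 in diabetic saline and 0.242 to 1.27 in non-diabetic saline libraries. Against Trpm6, the magnesium channel of the same segment, the ratios lay nearer to each other. There were 14.5 to 16.9 reads of Slc12a3 per read of Trpm6 in diabetic Esm-1, 15.24 to 23.6 in diabetic saline and 12.1 to 15.18 in non-diabetic saline libraries. The diabetic saline and non-diabetic ranges did not overlap here either, by a small margin.

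**Figure D2:**
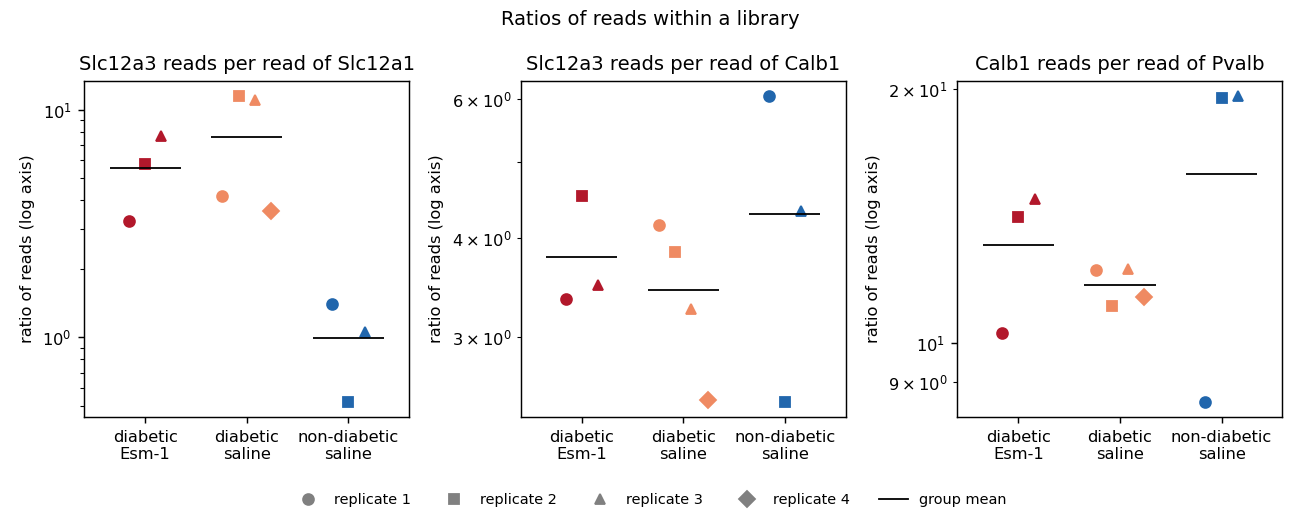
Ratios of reads within a library (log axis) for Slc12a3 over Slc12a1, Slc12a3 over Calb1 and Calb1 over Pvalb, by group, with marker shapes for replicates and a line at the group mean. The first ratio is 3.23 or more in all 7 diabetic libraries and 1.41 or less in the 3 non-diabetic ones, and the other 2 ratios overlap between all groups.

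The start regions are printed because the genes were high in the same groups, so that readers can set the DNA before their starts side by side. RefSeq (GRCm38.p6) lists 1 start for Slc12a3 and 2 for Pvalb, and none was matched for Calb1. The 250 bases before the start of Slc12a3 are chr8:94328958-94329207 (plus strand), and those before the more upstream of the Pvalb starts are chr15:78206401-78206650 (minus strand). Both are written in the direction of transcription, with capitals for matches to the motifs searched.
Slc12a3: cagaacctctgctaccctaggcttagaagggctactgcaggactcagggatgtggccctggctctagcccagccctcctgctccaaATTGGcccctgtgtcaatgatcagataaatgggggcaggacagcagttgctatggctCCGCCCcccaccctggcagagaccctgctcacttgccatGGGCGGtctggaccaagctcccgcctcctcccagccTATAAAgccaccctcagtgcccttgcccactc
Pvalb: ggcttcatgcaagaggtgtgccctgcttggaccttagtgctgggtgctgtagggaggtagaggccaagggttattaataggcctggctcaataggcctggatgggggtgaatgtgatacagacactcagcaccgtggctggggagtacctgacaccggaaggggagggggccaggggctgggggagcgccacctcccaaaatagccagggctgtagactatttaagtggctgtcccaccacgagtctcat
Both strands were searched for 5 short motifs. The letters TATAAA stand for the box that positions the start, CCAAT for the box bound by nuclear factor Y, and GGGCGG for the box bound by Sp factors. The letters GTTAAT are part of the site of HNF1 factors, and AGAACA is part of the site of steroid receptors. The Slc12a3 region held TATAAA 32 bases before the start, GGGCGG at 68 bases and, on the other strand, at 107 bases, and CCAAT on the other strand at 164 bases, with no overlap between matches. Neither Pvalb region held any of the letters searched. Of 32851 mouse promoter regions of this length, 12.4% hold TATAAA, 33.85% CCAAT, 32.7% GGGCGG, 6.43% GTTAAT and 16.1% AGAACA. A match is a description of the sequence and not a site of binding, and these data do not measure binding.

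The other genes of the segment were taken from a list of 40, of which 39 were in the table and 36 passed the filter. Between diabetic saline and non-diabetic saline, 11 of the 36 rose and 0 fell, where 5.53% of all 8239 genes tested were called (3.73% higher and 1.81% lower; limma, Benjamini-Hochberg adjusted p under 0.05 over all genes). The median log2 difference of the 36 was 0.41, and 27 lay above 0. Over all genes tested the median was -0.01 and 49.2% lay above 0. The 27 include Klhl3, S100g and Emx1, which passed the filter on low values through the diabetic libraries. Only 1, 0 and 0 non-diabetic libraries had 10 or more normalized counts of them, so their signs support nothing. Kinases of the Slc12a3 cascade and transporters of magnesium and calcium were among those that rose. The sum of the 24 podocyte, endothelium and mesangium markers stood lower in the diabetic saline group, at 4772 to 7129 normalized counts, against 7281 to 9923 in the non-diabetic saline group. With a term for the mean of those markers 3 of the 36 genes passed, 1 higher and 2 lower (Egf and Nedd4l), and the differences of Slc12a3, Calb1 and Pvalb were 0.61, 1.15 and 1.35. The marker mean did not overlap between the 3 groups (6.44 to 6.84 on the log2 scale in Esm-1, 7.0 to 7.50 in diabetic saline and 7.62 to 7.96 in non-diabetic saline libraries), so it and the group cannot be told apart.

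Of the 16 tested genes for salt transport, 5 rose with diabetes, where 3.73% of all genes tested were called higher. Atp1b1, the beta subunit of the sodium pump, which all nephron segments use, had 966 to 1298 normalized counts in diabetic saline libraries, against 456 to 789 in non-diabetic saline libraries, a log2 difference of 0.85 ± 0.18 (adjusted p = 0.00646). Wnk1 and Wnk4, kinases that activate the cotransporter through Stk39, rose by 0.56 ± 0.14 (adjusted p = 0.0205) and 0.85 ± 0.22 (adjusted p = 0.0233). Wnk1 had 448 to 481 in diabetic saline libraries, against 302 to 347 in non-diabetic saline libraries, while Wnk4 overlapped, at 82.4 to 142 in diabetic saline libraries, against 48.1 to 87.3 in non-diabetic saline libraries. The 11 that did not pass included Klhl3 with 0.47 ± 0.37, Stk39 with 0.47 ± 0.27 and the aldosterone-regulated kinase Sgk1 with 0.05 ± 0.13. Of the 16 genes, 11 lay above 0 and 5 below. With a library left out, Nedd4l ran from -0.70 to -0.16, Nr3c2 from -0.36 to -0.13 and Oxsr1 from -0.18 to -0.013.

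Of the 9 tested genes for magnesium, 3 rose, beside 3.73% of all genes tested. Fxyd2, the small subunit that tunes the sodium pump, had 326, 276, 329.9 and 290.3 normalized counts in diabetic saline libraries, against 116, 107 and 126 in non-diabetic saline libraries, a log2 difference of 1.38 ± 0.19 (adjusted p = 5.67e-05). The groups were far apart, and Fxyd2 passed under all 22 alternatives, with adjusted p between 1.23e-08 and 0.0114. Trpm6, the magnesium channel of the urine side, had 112, 54.6, 52.5 and 58.4 in diabetic saline libraries, against 41.5, 7.26 and 34.9 in non-diabetic saline libraries, a difference of 1.52 ± 0.42 (adjusted p = 0.0345). Cnnm2, a magnesium handling protein of the blood side, rose by 0.89 ± 0.26 (adjusted p = 0.0441). Egf, whose product stimulates Trpm6 and which the thick ascending limb shares, had 0.22 ± 0.29 (adjusted p = 0.746). Of the 9 genes, 7 lay above 0 and 2 below, and Egfr ran from -0.23 to -0.021 with a library left out.

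Of the 9 tested genes for calcium, 3 rose, beside 3.73% of all genes tested. Slc8a1, the sodium-calcium exchanger, had 469.5, 314, 425 and 476 normalized counts in diabetic saline libraries, against 228, 93.4 and 282 in non-diabetic saline libraries, a log2 difference of 1.19 ± 0.26 (adjusted p = 0.00836). Atp2b4, a calcium pump of the cell membrane, rose by 0.92 ± 0.24 (adjusted p = 0.0235). Klk1, the tissue kallikrein of the connecting tubule, rose by 1.51 ± 0.44 (adjusted p = 0.0463), at 57.4 to 172 in diabetic saline libraries, against 10.9 to 63.1 in non-diabetic saline libraries, with the groups overlapping. Trpv5, the calcium channel of the urine side, had 0.56 ± 0.22 (adjusted p = 0.171), and S100g, a small calcium-binding protein, 0.43 ± 0.40 (adjusted p = 0.607). Of the 9 genes, 7 lay above 0 and 2 below, and Vdr ran from -0.43 to -0.22 with a library left out. Of the transcription factors, Emx1 (0.89 ± 0.45) and Tfap2b (0.35 ± 0.42) did not pass, and Sall3 was below the filter.

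Several of these calls rest on single libraries, numbered here as the replicates of each group. Only 5 of the 36 genes passed on leaving out non-diabetic saline library 2 (4 higher, and Nedd4l lower), 5 on leaving out diabetic saline library 1, 5 on leaving out diabetic saline library 3, 7 on leaving out diabetic saline library 4 and 7 on leaving out Esm-1 library 2, which enters the shared spread. The calls of Fxyd2, Atp1b1 and Slc8a1 held whichever library was left out, but with the term for glomerular markers the adjusted p was 0.493 for Atp1b1 and 0.648 for Slc8a1 (the highest over their alternatives; the lowest were 4.79e-06 and 2.3e-07), and without the intensity trend 1 of the 36 genes passed. With non-diabetic saline library 2 left out the adjusted p was 0.0670 for Wnk1, 0.127 for Wnk4, 0.197 for Trpm6, 0.207 for Cnnm2, 0.108 for Atp2b4 and 0.266 for Klk1. With diabetic saline library 1 left out it was 0.0748 for Wnk4, 0.119 for Trpm6, 0.102 for Cnnm2, 0.0707 for Atp2b4 and 0.130 for Klk1. With diabetic saline library 3 left out it was 0.0548 for Wnk1, Trpm6 and Atp2b4, 0.0595 for Wnk4, and 0.131 for Cnnm2. With diabetic saline library 4 left out it was 0.0572 for Wnk4, 0.0571 for Atp2b4 and 0.127 for Klk1, and on leaving out diabetic saline library 2 it was 0.0600 for Cnnm2. With non-diabetic saline library 1 left out it was 0.0746 for Wnk4 and 0.134 for Cnnm2, and on leaving out library 3 of that group it was 0.0719 for Wnk1. With Esm-1 library 2 left out it was 0.0520 for Trpm6, 0.0630 for Cnnm2 and 0.0709 for Klk1, and on leaving out Esm-1 library 3 it was 0.0558 for Klk1. Over the 22 alternatives the adjusted p ran from 0.00445 to 0.399 for Wnk1, from 8.55e-05 to 0.752 for Wnk4 and from 1.08e-06 to 0.982 for Trpm6. It ran from 0.00446 to 0.582 for Cnnm2, from 0.00164 to 0.751 for Atp2b4 and from 1.64e-05 to 0.789 for Klk1.

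The comparison of diabetic Esm-1 with diabetic saline sets injection of the Esm-1 and transposase plasmids against saline in diabetes. Esm-1 cannot be told apart here from the transposase or the plasmids. No gene of the table passed (0 of 8239, 0%; 899 had an unadjusted p under 0.05 in limma; edgeR called 0 and DESeq2 32). With diabetic saline library 1 left out 52 genes passed, and with Esm-1 library 1 left out 10 did, none of them among the 36. Of the 36 other distal convoluted tubule genes, 10 had an unadjusted p under 0.05, 8 of them higher, and edgeR and DESeq2 called 0 of the 36 after adjustment. Their median log2 difference was 0.30, with 30 above 0, and over all genes it was 0.00, with 50.7% above 0. Thick ascending limb and proximal tubule markers lay higher too. The median was 0.73 over 6 thick ascending limb genes, all above 0, and 0.72 over 21 proximal tubule genes, 20 of them above 0. The 15 connecting tubule and collecting duct genes had a median of 0.06, with 8 above 0 and 7 below. The summed thick ascending limb and proximal tubule markers differed by 0.64 and 0.69 (exact permutation p = 0.114 and 0.171), and the collecting duct sum by -0.04 (exact permutation p = 0.914). All 24 glomerular markers lay below 0, and their sum differed by -0.64 (exact permutation p = 0.0571). The part of these differences in the values of the 36 genes was not tested. The lowest p belonged to Egfr, the receptor of epidermal growth factor, at 0.62 ± 0.20 (adjusted p = 0.226). Klk1 had 117, 216 and 294 normalized counts in diabetic Esm-1 libraries, against 127, 57.4, 59.4 and 172 in diabetic saline libraries, a difference of 1.06 ± 0.44 (adjusted p = 0.365). S100g had 0.86 ± 0.40, Klhl3 0.82 ± 0.37, Kcnj16, a potassium channel subunit, 0.54 ± 0.22, and Casr, the calcium-sensing receptor, 0.54 ± 0.22, with adjusted p of 0.443, 0.427, 0.339 and 0.362. Sgk1 and the magnesium transporter Slc41a1 went the other way, at -0.36 ± 0.13 and -0.47 ± 0.22, with adjusted p of 0.304 and 0.450.

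Diabetic Esm-1 against non-diabetic saline shares its non-diabetic libraries with the first comparison, so the values of both are given side by side and no overlap is read from them. Here 17 of the 36 genes rose and 0 fell, where 15.3% of all genes tested were called (7.19% higher and 8.11% lower). The median log2 difference of the 36, which include Klhl3, S100g and Emx1 as above, was 0.65, and over all genes 0.01. Among the 17 were Klk1 at 2.57 ± 0.47 (adjusted p = 0.000839; 1.51 for diabetic saline minus non-diabetic saline), Trpm6 at 2.23 ± 0.45 (adjusted p = 0.00181; 1.52 for diabetic saline), Fxyd2 at 1.71 ± 0.20 (adjusted p = 1.07e-05; 1.38 for diabetic saline) and Slc8a1 at 1.52 ± 0.28 (adjusted p = 0.00093; 1.19 for diabetic saline). Whether the 2 differences of a gene are unequal is the comparison of the diabetic groups above, which none passed. Also called were Kcnj16 (0.93 ± 0.23, adjusted p = 0.00911), Trpm7, a relative of Trpm6 (0.68 ± 0.20, adjusted p = 0.0231), and Pcbd1, a partner of HNF1 factors (1.10 ± 0.33, adjusted p = 0.0256). The 17 include S100g and Klhl3, which passed the filter on low values through the diabetic libraries, since 0 and 1 non-diabetic libraries had 10 or more normalized counts of them, so their differences (1.29 ± 0.43 and 1.29 ± 0.40) are a description and their calls support nothing. The glomerular marker sum was 3203 to 4492 normalized counts in Esm-1 libraries, less than in any non-diabetic one, and with the term for the marker mean 1 of the 36 genes passed (Egf, lower) and Slc12a3 changed sign, to -0.77.

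In this comparison 9 genes passed on leaving out Esm-1 library 3, 11 on leaving out Esm-1 library 2 and 12 on leaving out non-diabetic saline library 2. With Esm-1 library 3 left out the adjusted p was 0.252 for Wnk1, 0.0794 for Kcnj16, 0.165 for Trpm7, 0.196 for Pcbd1 and 0.0517 for Atp2b4. With Esm-1 library 2 left out it was 0.132 for Wnk1, 0.0874 for Trpm7 and 0.0711 for Pcbd1. With non-diabetic saline library 2 left out it was 0.102 for Wnk1 and 0.111 for Pcbd1. With non-diabetic saline library 1 left out it was 0.0526 for Wnk1 and 0.0807 for Trpm7, and on leaving out library 3 of that group it was 0.106 for Wnk1. The calls of Wnk4, Atp1b1, Trpm6, Cnnm2, Fxyd2, Slc8a1 and Klk1 held whichever library was left out, and none of them held with the term for glomerular markers. Over the 22 alternatives the highest adjusted p was 0.990 for Wnk1, 0.666 for Kcnj16, 0.922 for Trpm7, 0.810 for Pcbd1 and 0.847 for Atp2b4. The lowest was 0.00725 for Wnk1, 0.00104 for Kcnj16, 0.00520 for Trpm7, 0.00877 for Pcbd1 and 0.00106 for Atp2b4.

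**Figure D3:**
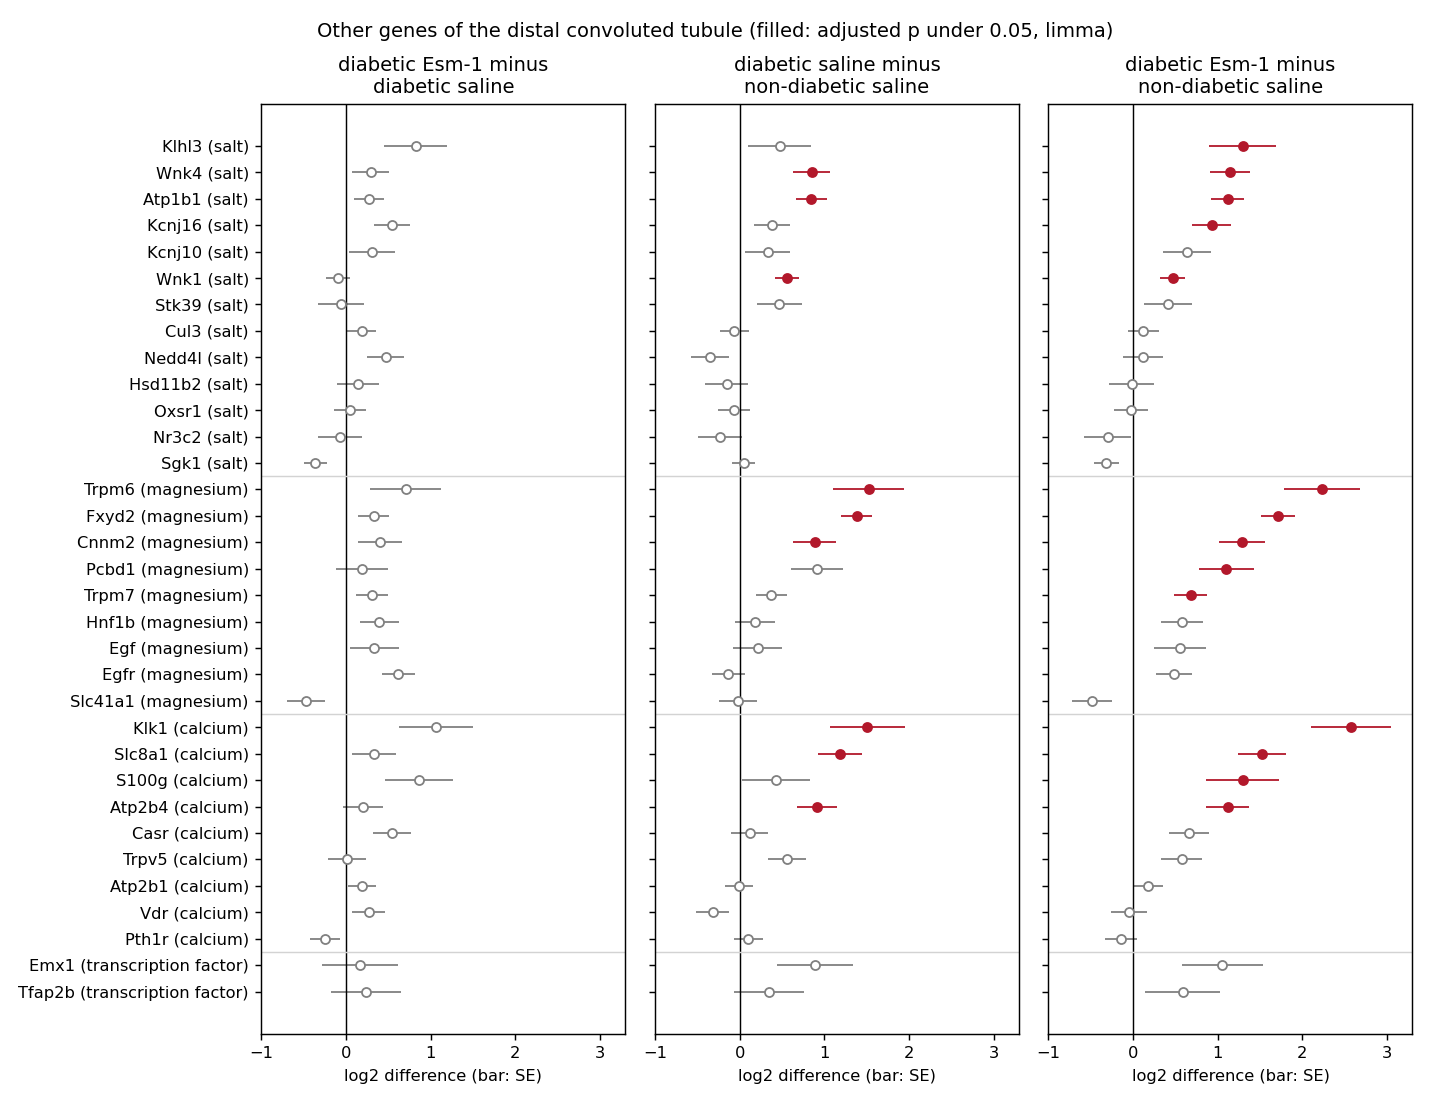
Log2 differences (points) with their SE (bars) of 33 tested genes of the segment other than Slc12a3, Calb1 and Pvalb, for diabetic Esm-1 minus diabetic saline, diabetic saline minus non-diabetic saline and diabetic Esm-1 minus non-diabetic saline; filled points have an adjusted p under 0.05 in limma. The panels hold 0, 9 and 14 filled points, all above 0.

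Markers of the neighbouring segments were summed per library to stand beside the distal convoluted tubule genes. The 10 thick ascending limb markers summed to 934 to 1486 normalized counts in diabetic Esm-1 libraries, 552 to 1466 in diabetic saline and 689 to 1928 in non-diabetic saline libraries. Diabetic saline minus non-diabetic saline was -0.58 on the log2 scale (two-sided exact permutation test over 35 splits, p = 0.4; smallest p possible 0.0286). Slc12a1 had -0.79 ± 0.39 (adjusted p = 0.281) and Umod -0.76 ± 0.30 (adjusted p = 0.152) in that comparison, and Cldn14 was not in the table. Sostdc1, a secreted inhibitor of BMP and Wnt signals that is made in distal tubules, was the 1 of 6 tested genes on that list that rose, at 1.50 ± 0.32 (adjusted p = 0.00591). Over all genes tested, 3.73% were called higher in that comparison. The 15 markers of the connecting tubule and collecting duct summed to 1775 to 1933 in diabetic Esm-1 libraries, 1748 to 2341 in diabetic saline and 969 to 1599 in non-diabetic saline libraries, without overlap between diabetic and non-diabetic groups. The log2 difference of diabetic saline minus non-diabetic saline was 0.56 (exact permutation p = 0.0571), and that of diabetic Esm-1 minus non-diabetic saline 0.51 (exact permutation p = 0.1, the smallest that 3 against 3 allows). The water channel Aqp2 (0.90 ± 0.17, adjusted p = 0.00236) and the sodium channel subunit Scnn1a (0.92 ± 0.19, adjusted p = 0.00547) were the 2 of 15 that rose with diabetes, beside the same 3.73% of all genes tested. Of the collecting duct sum, Aqp2 alone held on average 845 of 1948 normalized counts in diabetic saline libraries. In non-diabetic saline libraries it held 451 of 1346. The sum without Aqp2 was not compared. The 21 proximal tubule markers summed to 1596 to 2470 in diabetic Esm-1, 806 to 1912 in diabetic saline and 838 to 2867 in non-diabetic saline libraries (-0.30 for diabetic saline minus non-diabetic saline, exact permutation p = 0.514). Leaving out non-diabetic saline replicate 2 turned that difference to 0.18 (exact permutation p = 0.933). Of the 21 genes, Kap, Slc22a6 and Cyp4b1 were lower in the fit of all libraries, where 1.81% of all genes tested were called lower. The sum of glomerular markers differed by -0.45 for that comparison and by -1.09 for diabetic Esm-1 minus non-diabetic saline (exact permutation p = 0.0571 and 0.1). The part of any of these sums in the levels of Slc12a3, Calb1 and Pvalb was not tested.

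Calls on these lists were also lost with single libraries. The adjusted p of Kap was 0.200 on leaving out non-diabetic saline library 2, 0.0595 on leaving out non-diabetic saline library 3, 0.0928 on leaving out diabetic saline library 3 and 0.0887 on leaving out diabetic saline library 4, within 0.00432 to 0.749 over its alternatives. That of Slc22a6 was 0.306 on leaving out non-diabetic saline library 2, 0.142 and 0.0817 on leaving out diabetic saline libraries 3 and 4, and 0.0552, 0.0625 and 0.0586 on leaving out Esm-1 libraries 1, 2 and 3, within 0.0106 to 0.445. That of Cyp4b1 was 0.102 on leaving out non-diabetic saline library 2 and 0.0523 on leaving out diabetic saline library 3, within 2.6e-05 to 0.627. The calls of Sostdc1, Aqp2 and Scnn1a held whichever library was left out. Without the intensity trend they were lost, with adjusted p of 0.0642, 0.0631 and 0.0686, and with the term for glomerular markers Sostdc1 had 0.378 and Scnn1a 0.425. The lowest adjusted p over the alternatives was 1.23e-05 for Sostdc1, 0.000172 for Aqp2 and 8.55e-05 for Scnn1a.

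**Figure D4:**
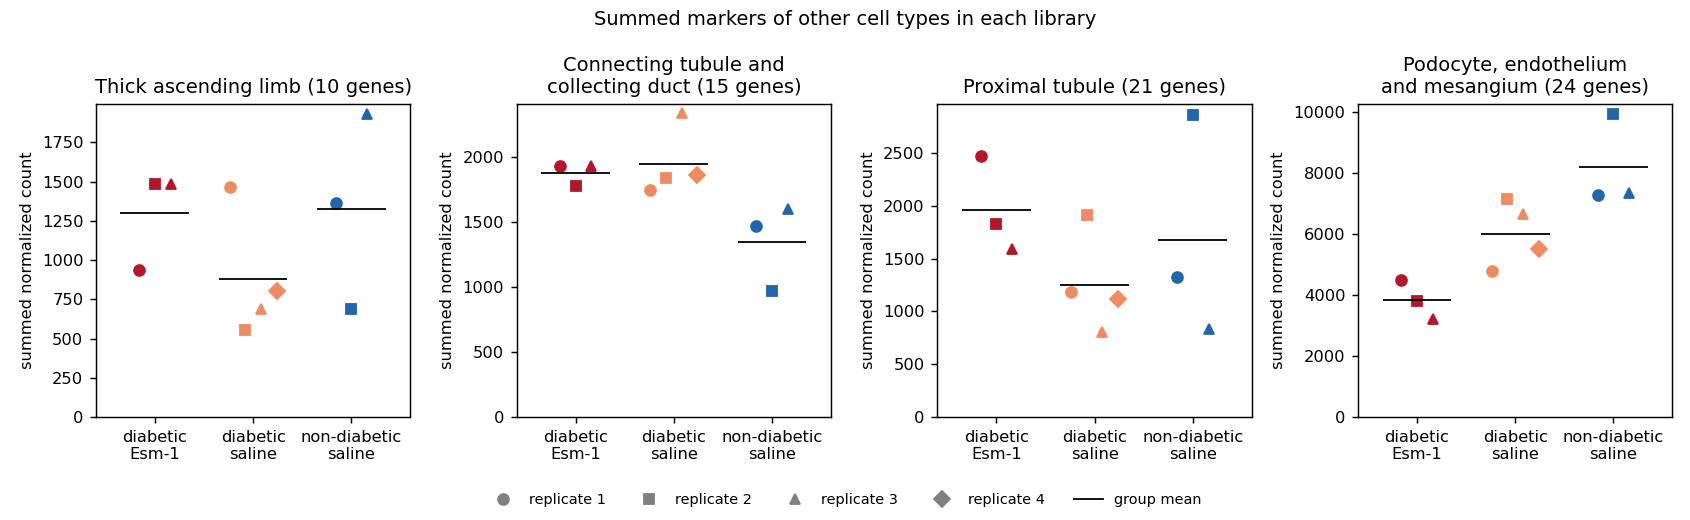
Summed normalized counts of the markers of the thick ascending limb, the connecting tubule and collecting duct, the proximal tubule and the glomerulus in each library of the 3 groups, with marker shapes for replicates and a line at the group mean; each axis starts at 0. The collecting duct sum is higher in every diabetic library (1748 or more) than in any non-diabetic one (1599 or less), the glomerular sum is lower, and the sums of the other 2 segments overlap. Aqp2 makes up a large part of the collecting duct sum.

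Relatives by protein family were counted in the same way. Of 8 other members of the Slc12 cation-chloride cotransporter family, 7 were in the table and 6 were tested, and 0 passed with diabetes (0 at an unadjusted p under 0.05 in limma, edgeR or DESeq2). With 5.53% of all genes tested called, 0 of 6 does not set the family apart. Slc12a2, the widely expressed sodium-potassium-chloride cotransporter, had 331.3 normalized counts in diabetic saline libraries and 331.2 in non-diabetic saline libraries on average, with a log2 difference of -0.04 ± 0.21. Slc12a7, a potassium-chloride cotransporter, passed in diabetic Esm-1 against non-diabetic saline, at 0.89 ± 0.23 (adjusted p = 0.0103, and between 0.00381 and 0.957 over the alternatives, the highest with the term for glomerular markers). Of 15 other genes for EF-hand calcium-binding proteins, 12 were in the table and 11 were tested, and 2 rose with diabetes, where 3.73% of all genes tested were called higher. S100a1 had 110, 91.6, 111 and 154 normalized counts in diabetic saline libraries, against 58.2, 31.7 and 64.8 in non-diabetic saline libraries, a difference of 1.20 ± 0.22 (adjusted p = 0.0018). Efhd1, a mitochondrial calcium-binding protein, had 1.22 ± 0.24 (adjusted p = 0.00381). With the term for glomerular markers the adjusted p was 0.239 for S100a1 and 0.326 for Efhd1, the highest over their alternatives, and the lowest was 2.6e-05 for S100a1 and 5.14e-05 for Efhd1. Calb2, Ocm and Scgn, close relatives of Calb1 and Pvalb, were not in the table. Of 9 genes of skeletal muscle, where parvalbumin is also abundant, Atp2a1 alone was in the table, at 0 to 2.86 normalized counts in any library, and 8 were not.

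The genes whose pattern over the 10 libraries lay nearest to the mean pattern of Slc12a3, Calb1 and Pvalb were Pgam2, Fam46b, Kng2, Uroc1 and Abca13. Likeness was the root-mean-square difference of log2(value + 1) after centring each gene, over 8236 other tested genes, and it was 0.25, 0.25, 0.27, 0.29 and 0.30 for these 5. Pgam2 encodes a phosphoglycerate mutase of glycolysis, Kng2 a kininogen, Uroc1 the urocanase of histidine breakdown and Abca13 a membrane transporter. Reads of Kng2 may be shared with a near-identical paralog. Abca13 had 344, 747 and 976 normalized counts in diabetic Esm-1 libraries, 651, 365, 387 and 416 in diabetic saline libraries, and 223, 45.3 and 256 in non-diabetic saline libraries. It was the gene nearest to Slc12a3 (0.20), followed by Kng2 and Uroc1. Pgam2 had 30.6, 60.1 and 85.0 in diabetic Esm-1, 52.0, 40.7, 58.6 and 70.8 in diabetic saline and 16.7, 4.53 and 19.9 in non-diabetic saline libraries, and it was nearest to Calb1 (0.24), followed by Pvalb and Slc16a7. Fam46b was nearest to Pvalb (0.24), followed by Calb1 and Pgam2. Calb1 and Pvalb thus stood at rank 2 for each other, while Slc12a3 was at rank 10 for Calb1 and rank 8 for Pvalb. Fam46b had 7.40 to 16.8 normalized counts in diabetic saline libraries, and 3.10, 0 and 2.49 in non-diabetic saline libraries. It thus passed the filter on low values through the diabetic libraries. Pvalb had 17, 2 and 5 reads in the non-diabetic libraries, so the likeness of Fam46b and Pvalb rests there on few reads. Of the listed genes of the segment, Trpm6 came at rank 9 for the mean pattern, Klk1 at 16, Slc8a1 at 17 and Fxyd2 at 41. Others of the segment came far down, with Sgk1 at 5116 and Slc41a1 at 5266. On the thick ascending limb list, Sostdc1 came at 14 and Slc12a1 at 6039.

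The order depends on non-diabetic saline replicate 2. Over the other 9 libraries Cwh43, Fxyd2, Slc16a7, Gpx6 and Pgam2 led the list for the mean pattern, and 7 of the nearest 10 genes were shared with the list over all libraries. Trpm6 then came at rank 46. Pgam2 was then at rank 3 for Calb1 and Fam46b at rank 3 for Pvalb. Pvalb was at rank 6 for Calb1, Calb1 at rank 7 for Pvalb, and Slc12a3 at rank 11 for Calb1 and rank 39 for Pvalb. Of the nearest 10 genes, 6 were shared between the lists for Calb1, 4 for Pvalb and 4 for Slc12a3. Abca13 was nearest to Slc12a3 in both. The ranking is a description of these libraries, since all of them entered the choice of the 3 genes.

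**Figure D5:**
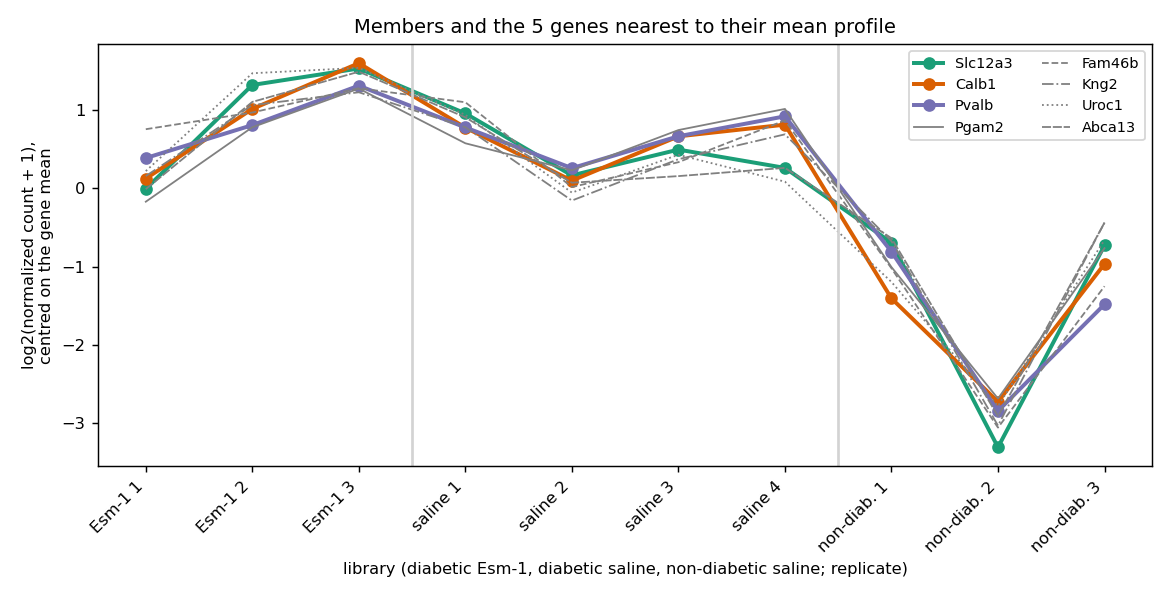
Log2(normalized count + 1), centred on each gene's mean, across the 10 libraries in the order diabetic Esm-1, diabetic saline and non-diabetic saline, for Slc12a3, Calb1 and Pvalb (coloured lines with points) and the 5 genes nearest to their mean pattern (grey lines). All 8 lines are lowest in non-diabetic saline replicate 2.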

How the data were processed

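RNA of isolated glomeruli was sequenced in 10 libraries. Per the submitters' processing notes, the authors trimmed reads with Trimmomatic 0.36, aligned them with STAR 2.5.3a, named the mm9 build and used DESeq2 1.28.1 in R 4.0.2. The deposited signal values are normalized counts in 1 table of 12934 genes. How reads were counted, with which annotation and whether by strand is not given in the sources used here, so overlapping and antisense genes may share reads. Dividing each library by the value of 1 read gave whole reads for 100% of 129340 values (tolerance 0.001), which served edgeR and DESeq2 as alternatives. A floor of 3 reads equalled 1.86 to 5.31 normalized counts, depending on the library. Such floors, and intervals, cover counting error only.

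Slc12a3, Calb1 and Pvalb, the gene lists and the tests were chosen with earlier results of these data known. Groups came from the labels. Values were used as log2(value + 1); this makes the folds of low genes too small. Genes at 10 or more in at least 3 libraries were tested (8239 genes; 4695 below). One limma 3.58.1 fit (R 4.3.3) with an intensity trend held all 10 libraries and 3 groups and gave 3 two-sided comparisons at a Benjamini-Hochberg adjusted p under 0.05. It was tested on simulated data. Marker sums were compared by exact permutation. Of the segment's other genes, any that passed the filter could be named. From each other list up to 4 called genes were named (lowest adjusted p), or 2 with the largest difference where none passed; Umod, Pecam1, Slc12a2, Esm1 and the genes nearest when non-diabetic saline replicate 2 was left out were added after their values were seen. Some genes counted in the lists are not reported here by name or drawn. The 5 genes nearest to the mean pattern and the 3 nearest to each gene were named by the likeness described above.

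The alternatives used 5 as pseudocount, all rows unfiltered, a common total with and without Rn45s, Lars2 and Mir6236, edgeR 4.0.16 (quasi-likelihood, TMM), DESeq2 1.42.0, no intensity trend, fits of 2 groups, a term for the mean of glomerular markers, a term for or omission of the 2 libraries with title numbers under 100, and each library left out. A term for thick ascending limb markers was added after seeing the data, as was likeness without non-diabetic saline replicate 2.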

Additional observations from a re-analysis of the deposited data

Results flagged for a closer look

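Sets of 4 diabetic saline libraries were checked for Slc12a3, Calb1, Pvalb, the genes named by rule from the lists, and the marker sums. Among these 59 sets, 5 held a library whose gap to its nearest neighbour exceeded the 95% critical value of Dixon's test (0.829 of the range for 4 libraries). Chance gives about 1 in 20. Diabetic saline replicate 2 was set apart for 3 genes of the segment: it had 66.6 normalized counts of Oxsr1, a kinase of the Slc12a3 cascade, above the 46.4, 49.1 and 49.6 of the other libraries; 966 of Atp1b1, below 1245 to 1298; and 31.5 of Casr, below 53.1 to 54.3. Diabetic saline replicate 1 had 112 of Trpm6, above 52.5 to 58.4. Diabetic saline replicate 4, the library with the fewest reads, had 33.6 of Tfap2b, a transcription factor of the segment, above 10.2 to 13.8. None of these sets was of Slc12a3, Calb1 or Pvalb.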

How the results depend on the processing

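No paired analysis was possible because the labels give no replicate numbers shared between groups. With the term for glomerular markers, log2 differences of diabetic saline minus non-diabetic saline, diabetic Esm-1 minus diabetic saline and diabetic Esm-1 minus non-diabetic saline were 1.15, -1.14 and 0.0090 for Calb1, 1.35, -1.13 and 0.22 for Pvalb and 0.61, -1.38 and -0.77 for Slc12a3; the marker mean differs between the groups, so this term takes up part of the group difference by construction. With the term for thick ascending limb markers they were 2.81, -0.26 and 2.55 for Calb1, 2.79, -0.29 and 2.5 for Pvalb and 2.81, -0.36 and 2.44 for Slc12a3. Leaving out each library gave 1.77 to 2.65, -0.02 to 0.72 and 2.10 to 3.0 for Calb1, 1.80 to 2.82, -0.06 to 0.40 and 1.98 to 3.0 for Pvalb, and 1.18 to 2.49, 0.19 to 0.96 and 1.66 to 3.0 for Slc12a3.

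Of the other 36 genes of the segment, 11 were called with diabetes, but 6 by DESeq2, 1 without the intensity trend, 3 with the glomerular term and 5 to 11 with a library left out. In diabetic Esm-1 against non-diabetic saline, 17 of the 36 were called, but 10 without the trend, 1 with the glomerular term and 9 to 18 with a library left out. Over all genes, the 456, 0 and 1260 calls became 224, 0 and 791 without the trend and 212, 0 and 53 with the glomerular term; 792 were called with diabetes with the thick ascending limb term, 32 by DESeq2 between the diabetic groups, and 289 to 475, 0 to 52 and 626 to 1372 with a library left out. The cause was not tested.

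With the glomerular term the difference in diabetic Esm-1 against non-diabetic saline changed sign for Wnk1 (-0.025), Wnk4 (-0.28), Klhl3 (-1.02), Kcnj16 (-0.60), Atp1b1 (-0.092), Trpm6 (-1.16), Egf (-2.21), Pcbd1 (-0.64), S100g (-0.68), Slc8a1 (-0.49), Atp2b4 (-0.39), Klk1 (-1.50), Slc12a1 (-3.64), Scnn1a (-0.091), Aqp4 (-0.023), Cyp4b1 (0.52), S100a1 (-0.10), Slc12a7 (-0.13), Pgam2 (-0.43), Fam46b (-0.075), Kng2 (-1.10), Uroc1 (-0.11), Abca13 (-1.16) and Slc16a7 (-0.36), and with diabetes for Egf (-0.99) and Klk1 (-0.27). These are named genes called in the main fit or with the term, and sign changes of genes called in neither are left out.

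The collecting duct sum, -0.04 between the diabetic groups, was 0.089 as a mean of log2 values. With a library left out, the log2 differences in the 3 comparisons above ran over -0.99 to -0.24, 0.45 to 0.92 and -0.35 to 0.39 for the thick ascending limb sum, 0.34 to 0.70, -0.094 to 0.047 and 0.29 to 0.65 for the collecting duct sum, and -0.70 to 0.18, 0.50 to 0.92 and -0.013 to 0.87 for the proximal tubule sum. The sign turned for the thick ascending limb sum in the last comparison without Esm-1 replicate 2 or 3 or non-diabetic saline replicate 2, for the collecting duct sum between the diabetic groups without diabetic saline replicate 3, and for the proximal tubule sum with diabetes without non-diabetic saline replicate 2 and in the last comparison without non-diabetic saline replicate 3. Depth limits Pvalb most, at 2 reads in its lowest library.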
